A study of Mus musculus with 10 samples.

Results

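Bone morphogenetic proteins (Bmps) are secreted ligands that bind a complex of type I and type II receptor kinases. The type II receptor activates the type I receptor, which phosphorylates the receptor Smads, and these enter the nucleus together with the common Smad4 and switch on target genes such as the Id genes. In the tooth germ, Bmp signals pass back and forth between epithelium and mesenchyme, and loss of the receptor Bmpr1a from the epithelium is known to halt development at the bud. The 10 genes described here belong to this pathway but do not make up all of it. Further receptors and *Smad9*, the remaining Bmp receptor Smad, are given below as its setting. The 10 are 3 type I receptors (*Bmpr1a*, *Bmpr1b* and *Acvr1*), the type II receptor *Bmpr2*, 3 Smads (*Smad1*, *Smad5* and *Smad4*) and 3 Id genes (*Id1*, *Id2* and *Id3*). They were picked by name, through their Ensembl identifiers, and all 10 were among the 27528 genes of the table.

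Expression was measured in first molar tooth germs of embryos of NMRI mice, an outbred stock, for which the labels name no genetic change or treatment, at E13.5 (bud stage) and E14.5 (cap stage). Each of the 5 arrays per stage carried RNA pooled from 12 to 18 germs, so embryos within a pool cannot be told apart. The arrays (Affymetrix Mouse Exon 1.0) give 1 signal per gene, read here as log2. Replicates are numbered 1, 2, 4, 5 and 6 at both stages. The labels call them separate samples of a stage, and the study calls them biological replicates.

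The dissected germ holds epithelium and mesenchyme together. Markers were counted as higher or lower at a limma adjusted p under 0.05 over all genes. Of all genes, 4.36% were higher and 3.49% lower at that threshold. Of 9 dental epithelium markers, 7 were higher at E14.5 and 0 lower, and the mean of the list ran from 6.93 to 7.53 on the E13.5 arrays and from 8.07 to 8.30 on the E14.5 arrays. Of 8 dental mesenchyme markers, 6 were lower and 1 higher at E14.5, with list means of 8.30 to 8.42 and then 7.48 to 7.65. The 6 enamel knot markers had list means of 5.99 to 6.40 and then 7.40 to 7.76, and 6 bone markers 5.10 to 5.44 and then 5.71 to 6.12, with 5 and 3 genes higher, respectively. The lowest log2 signal of any marker on any array was 4.97 for epithelium, 6.84 for mesenchyme, 5.43 for enamel knot and 3.32 for bone. Whether these lie above background could not be examined. In whole germs, fewer cells of a type and less RNA per cell cannot be told apart. The part of this shift in the results that follow was not tested.

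The stretches before the start sites of 3 genes are shown because they belong to the member that changed between the stages (*Acvr1*) and to target genes of the pathway (*Id2* and *Id3*). Each is the 250 bases upstream of the RefSeq start, 5′ to 3′ on the strand of the gene, build GRCm38.p6. Capitals mark the letters CAGAC, the core of the DNA box bound by Smad proteins, and GGCGCC, a GC-rich sequence bound by the Bmp receptor Smads, on either strand.
*Acvr1*, chr2:58566829-58567078, minus strand: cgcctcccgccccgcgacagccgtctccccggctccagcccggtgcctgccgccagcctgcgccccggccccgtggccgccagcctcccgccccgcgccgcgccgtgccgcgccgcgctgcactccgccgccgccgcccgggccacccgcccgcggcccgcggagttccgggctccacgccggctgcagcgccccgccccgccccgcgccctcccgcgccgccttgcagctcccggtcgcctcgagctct
*Id2*, chr12:25096093-25096342, minus strand: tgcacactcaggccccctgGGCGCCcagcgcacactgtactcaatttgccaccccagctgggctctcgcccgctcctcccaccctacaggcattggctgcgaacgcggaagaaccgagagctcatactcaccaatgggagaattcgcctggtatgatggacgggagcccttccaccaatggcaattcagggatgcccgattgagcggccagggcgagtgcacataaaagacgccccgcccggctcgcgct
*Id3*, chr4:136143572-136143821, plus strand: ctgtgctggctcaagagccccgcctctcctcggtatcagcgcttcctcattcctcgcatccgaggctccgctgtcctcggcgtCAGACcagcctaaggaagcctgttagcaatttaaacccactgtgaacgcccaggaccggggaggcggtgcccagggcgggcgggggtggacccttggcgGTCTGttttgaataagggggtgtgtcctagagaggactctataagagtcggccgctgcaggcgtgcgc
The *Id3* window held 2 matches to CAGAC, the *Id2* window 1 match to GGCGCC and the *Acvr1* window neither. Of the 32851 windows of this length in the reference table, 42.2% held CAGAC and 9.59% held GGCGCC. Windows were at hand for 8 of the 10 genes, 12 windows in all because some genes have several starts, and 4 of them held each motif. *Id1* and *Smad4* were not searched. A match describes letters in a window and not a bound site.

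The question asked of the arrays was which of these 10 genes change in level as the bud becomes a cap. *Acvr1* was higher at E14.5, and the other 9 genes did not pass the test (limma adjusted p under 0.05 over all genes). Of all genes tested, 7.85% passed, 4.36% higher and 3.49% lower. None of the 10 was called lower by limma, although 1 of them, *Id2*, was lower at an unadjusted p under 0.05. In either direction, 2 of the 10 genes and 5155 of all 27528 genes had an unadjusted limma p under 0.05. The median change of the 10 was -0.090 log2 units, against -0.015 for all genes, and the median size of the change regardless of direction was 0.12 against 0.095.

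**Figure D1:**
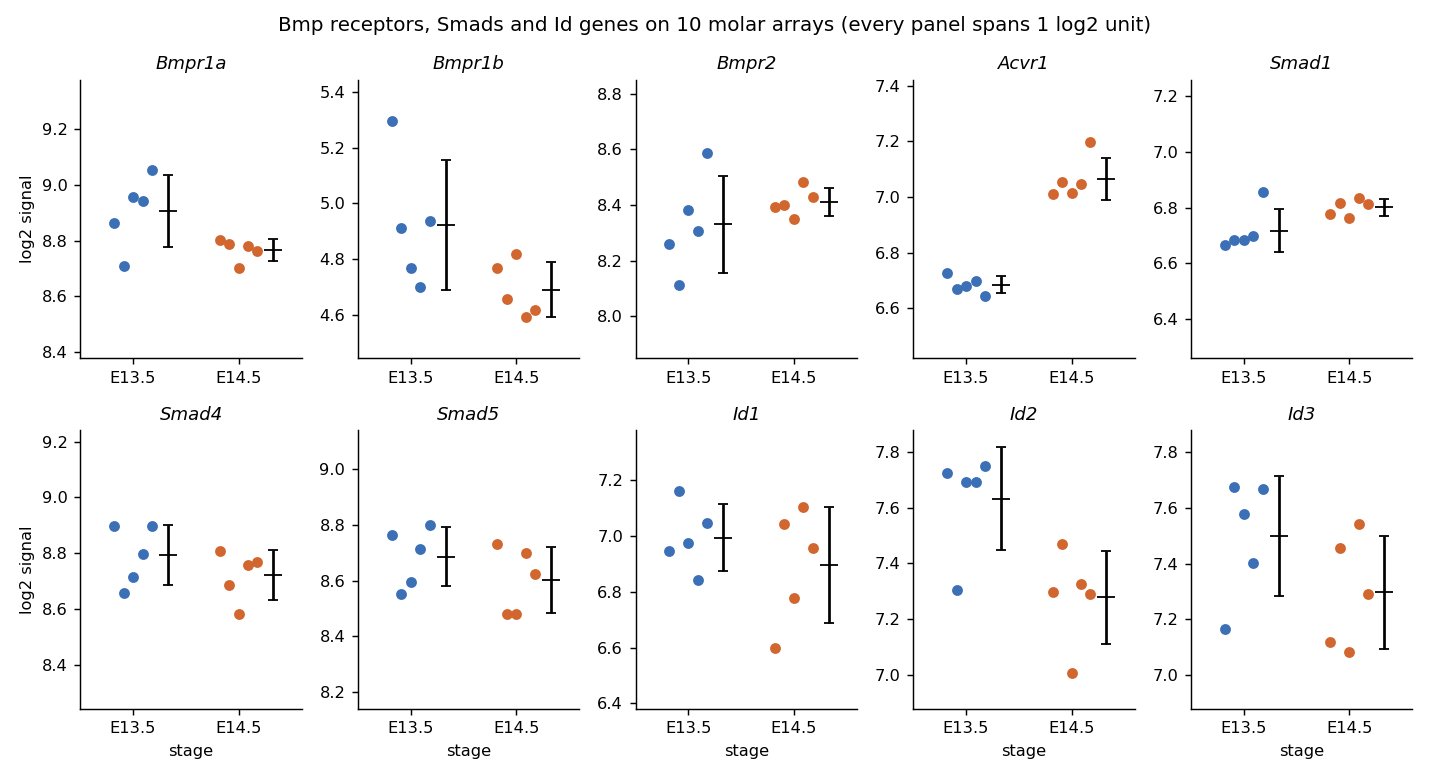
Log2 signal of the 10 genes (vertical axes) on each array at E13.5 (blue) and E14.5 (orange), with the mean and SD of 5 arrays in black. Points within a stage run from replicate 1 to replicate 6, and every panel spans the same range. Only in the *Acvr1* panel do the arrays of the stages not overlap, the E13.5 arrays reaching 6.73 and the E14.5 arrays starting at 7.01.

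Among the type I receptors, *Acvr1* (ENSMUSG00000026836) encodes the receptor also called Alk2, which serves several Bmp ligands. It read 6.73, 6.67, 6.68, 6.70 and 6.65 on E13.5 replicates 1, 2, 4, 5 and 6, and 7.01, 7.05, 7.02, 7.05 and 7.20 on the same numbers at E14.5. Every E14.5 array lay above every E13.5 array. Such a separation, in either direction, was seen in 8.84% of all genes. The stage means were 6.69 ± 0.031 and 7.07 ± 0.076 (SD, n = 5). The rise of 0.38 had a standard error of 0.058 (limma adjusted p = 0.00164) and equals 1.30-fold, with a 95% interval of 1.19 to 1.42. The rise passed in all 17 alternatives, with limma adjusted p between 0.000444 and 0.0115. It was moderate in size, and 950 genes rose by more.

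*Bmpr1a* (ENSMUSG00000021796), also called Alk3, is a progression gene of the study, whose loss arrests the tooth at the bud. It read 8.86, 8.71, 8.96, 8.94 and 9.06 at E13.5 and 8.80, 8.79, 8.70, 8.78 and 8.76 at E14.5, in the same order of replicates. The E14.5 arrays lay close together within the lower part of the E13.5 range and just below it. The difference of -0.14 (95% interval -0.29 to 0.017, limma adjusted p = 0.337) did not pass. A fall larger than 0.29 log2 units thus lies outside the interval.

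*Bmpr1b* (ENSMUSG00000052430), also called Alk6, is the type I receptor known for its role in limb cartilage. It read 5.30, 4.91, 4.77, 4.70 and 4.94 at E13.5 and 4.77, 4.66, 4.82, 4.59 and 4.62 at E14.5. The highest value was that of E13.5 replicate 1, and the remaining arrays of the stages overlapped. The difference was -0.23 (95% interval -0.47 to 0.00027, limma adjusted p = 0.268), and -0.14 without E13.5 replicate 1. On that array the epithelium markers had their lowest mean, 6.93 against 7.38 to 7.53 on the other E13.5 arrays, and the part of this in the *Bmpr1b* value was not tested. *Bmpr1b* was above the median of all genes on 1 of the 10 arrays and each of the other 9 genes on all 10. Because probes differ in how strongly they bind, this places no gene's transcripts above another's.

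*Bmpr2* (ENSMUSG00000067336), the type II receptor dedicated to Bmps, read 8.26, 8.11, 8.38, 8.31 and 8.59 at E13.5 and 8.39, 8.40, 8.35, 8.48 and 8.43 at E14.5. All E14.5 arrays fell inside the E13.5 range. The difference was 0.080 (95% interval -0.10 to 0.26, limma adjusted p = 0.732).

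Among the receptor Smads, *Smad1* (ENSMUSG00000031681) read 6.67, 6.69, 6.69, 6.70 and 6.86 at E13.5 and 6.78, 6.82, 6.76, 6.84 and 6.82 at E14.5. Of the E13.5 arrays only replicate 6 reached the E14.5 values. The difference of 0.084 (95% interval -0.045 to 0.21, limma adjusted p = 0.527) did not pass, and it was 0.12 without that array (limma adjusted p = 0.316). *Smad5* (ENSMUSG00000021540), which acts beside *Smad1* downstream of the same receptors, read 8.76, 8.55, 8.60, 8.71 and 8.80 at E13.5 and 8.73, 8.48, 8.48, 8.70 and 8.62 at E14.5. The stages overlapped widely, with a difference of -0.082 (95% interval -0.25 to 0.087, limma adjusted p = 0.685).

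*Smad4* (ENSMUSG00000024515), the common partner shared by the Bmp and the Tgfb and activin branches, read 8.90, 8.66, 8.71, 8.80 and 8.90 at E13.5 and 8.81, 8.69, 8.58, 8.76 and 8.77 at E14.5. Its difference was -0.072 (95% interval -0.23 to 0.086, limma adjusted p = 0.713). Across the 3 Smads the intervals reached from -0.25 to 0.21 log2 units.

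The spread of all signals on an array moved with several of these values. Among the E13.5 arrays, *Bmpr1a*, *Bmpr2* and *Smad5* were highest on replicate 6 and lowest on replicate 2, the arrays with the widest (SD 1.74) and the narrowest (SD 1.58) spread of that stage. *Id1* (7.16) and *Id3* (7.68, with 7.67 on replicate 6) were instead highest on replicate 2. Among the E14.5 arrays, replicate 4 had the narrowest spread (SD 1.51) and the lowest *Bmpr1a*, *Bmpr2*, *Smad1*, *Smad4*, *Id2* and *Id3*. With quantile normalization, which gives every array the same spread, the change was -0.069 for *Bmpr1a*, 0.13 for *Bmpr2*, -0.012 for *Smad5*, -0.0028 for *Smad4* and 0.41 for *Acvr1*. Of the 10 genes, *Acvr1* (limma adjusted p = 0.000737) and *Id2* (-0.32, limma adjusted p = 0.0339) passed under this scaling. So did 2498 of all 27528 genes, against 2162 in the main fit.

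**Figure D2:**
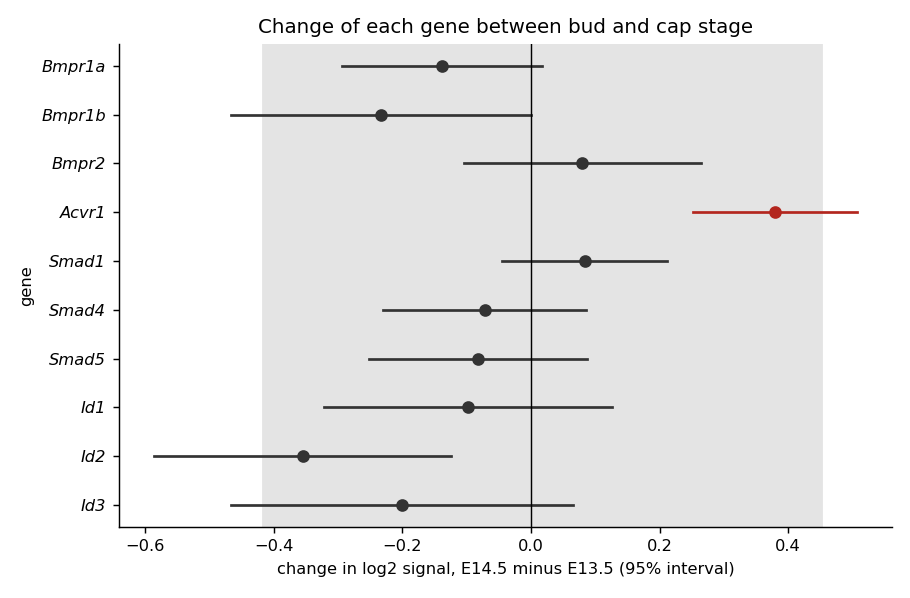
Change in log2 signal from E13.5 to E14.5 (horizontal axis) of each gene (vertical axis), with dots for the estimate and bars for the 95% interval of the limma fit. The grey band holds the central 95% of the changes of all genes, -0.42 to 0.45. *Acvr1*, in red, is the one gene past the adjusted threshold, and the interval of *Id2* also excludes 0. Of all 27528 genes, 5155 had an unadjusted limma p under 0.05, which is when such an interval excludes 0.

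The Id genes encode helix-loop-helix proteins that lack a DNA-binding region and block other transcription factors of that family. They are widely used as readouts of Bmp signalling. *Id2* (ENSMUSG00000020644) read 7.72, 7.31, 7.69, 7.69 and 7.75 at E13.5 and 7.30, 7.47, 7.01, 7.33 and 7.29 at E14.5. With the exception of E13.5 replicate 2, every E13.5 array was above every E14.5 array. The mean was 7.63 ± 0.18 and then 7.28 ± 0.17 (SD, n = 5), a difference of -0.36 (95% interval -0.59 to -0.12) that did not pass over all genes (limma adjusted p = 0.0672). It passed in 6 of 17 alternatives (limma adjusted p = 0.012 to 0.158 over all of them), and one of these left out E13.5 replicate 2 and gave -0.44 (limma adjusted p = 0.012). Those 6 alternatives called more genes in general, 2399 to 3911 against 2162 in the main fit. The 11 in which *Id2* did not pass called 1479 to 2077.

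*Id3* (ENSMUSG00000007872) read 7.17, 7.68, 7.58, 7.40 and 7.67 at E13.5 and 7.12, 7.46, 7.08, 7.54 and 7.29 at E14.5. The stages overlapped, and the difference was -0.20 (95% interval -0.47 to 0.065, limma adjusted p = 0.44). *Id1* (ENSMUSG00000042745) read 6.95, 7.16, 6.98, 6.84 and 7.05 at E13.5 and 6.60, 7.05, 6.78, 7.11 and 6.96 at E14.5. Its E14.5 arrays spread over and below the E13.5 range, with a difference of -0.098 (95% interval -0.32 to 0.13, limma adjusted p = 0.729), and with array quality weights the sign turned (0.024). The SD between arrays of a stage was 0.12 to 0.22 for the Id genes and 0.031 to 0.12 for the Smads.

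Whether related genes changed unequally was asked by taking their difference on each array. This removes a shift that the array adds equally to both, but not one that differs with the level of signal. The difference itself depends on the probes, so only its change between stages was tested. Of 6 pairs, 1 passed. *Acvr1* minus *Bmpr1a* lay between -2.41 and -2.04 on the E13.5 arrays and between -1.79 and -1.57 on the E14.5 arrays. It rose by 0.52 (95% interval 0.35 to 0.69, exact permutation p = 0.00794, the smallest the design allows, adjusted 0.0476 over the 6 pairs). With quantile normalization the rise was 0.48 (adjusted exact permutation p = 0.0476). When 1 array was left out the change ran from 0.47 to 0.56, and because the stages are fully apart its p could not move from the smallest possible.

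**Figure D3:**
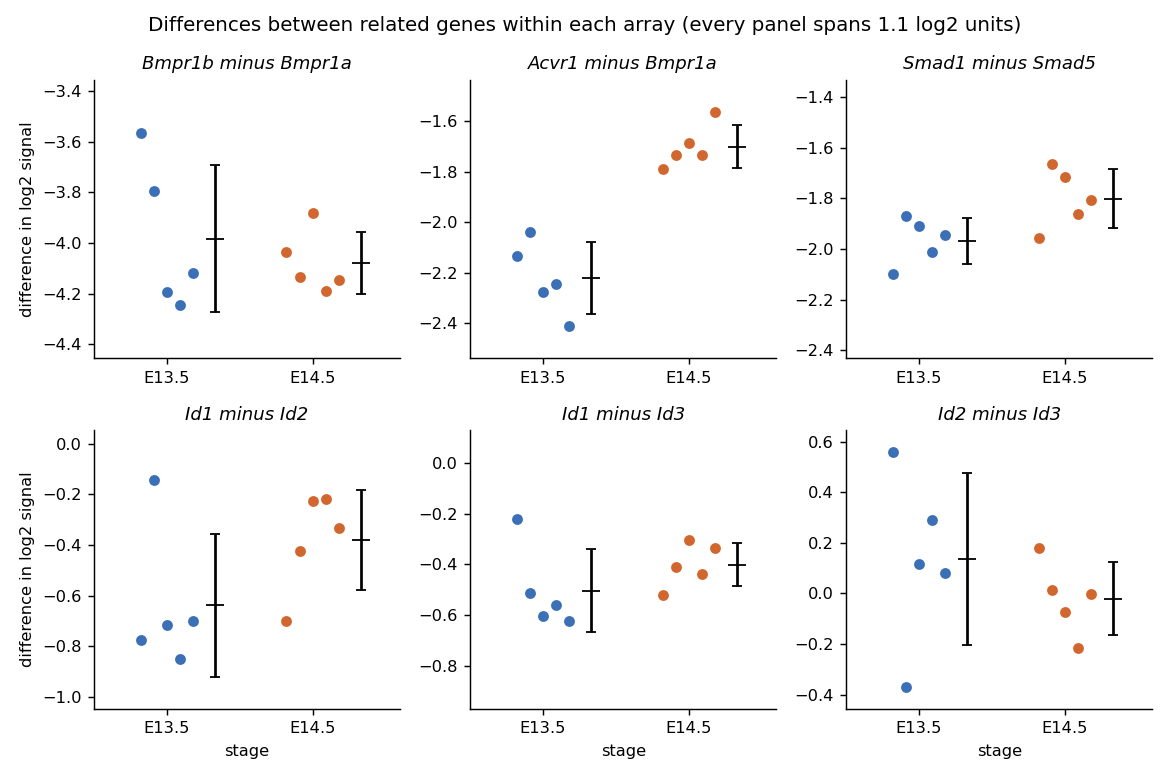
Difference in log2 signal between 2 related genes on the same array (vertical axes) at E13.5 (blue) and E14.5 (orange), with mean and SD of 5 arrays in black. Every panel spans the same range. The arrays of the stages are apart for *Acvr1* minus *Bmpr1a* and overlap in the other 5 panels.

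*Smad1* minus *Smad5* was higher by 0.17 at E14.5 (95% interval 0.0039 to 0.33, exact permutation p = 0.0476, adjusted 0.143), which did not pass. Without E14.5 replicate 1 the difference passed, at 0.21 (adjusted exact permutation p = 0.0476). *Bmpr1b* minus *Bmpr1a* changed by -0.094 (95% interval -0.38 to 0.19, exact permutation p = 0.548, adjusted 0.548), and by 0.010 without E13.5 replicate 1.

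Among the Id genes, *Id1* minus *Id2* changed by 0.26 (95% interval -0.044 to 0.56, exact permutation p = 0.151, adjusted 0.302), *Id1* minus *Id3* by 0.10 (95% interval -0.084 to 0.29, exact permutation p = 0.254, adjusted 0.381) and *Id2* minus *Id3* by -0.16 (95% interval -0.48 to 0.17, exact permutation p = 0.381, adjusted 0.457). Without E13.5 replicate 2 the change of *Id1* minus *Id2* was 0.38 and passed (adjusted exact permutation p = 0.0476). With all arrays in the test, unequal change among the 3 Id genes was not shown, and the intervals of the pairs that include *Id2* also hold differences as large as its own change.

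The rest of the Tgfb pathway, as tabulated by the study, gives the setting of these 10 genes. Of 56 other genes with a value, 16 passed, 9 higher and 7 lower, where 7.85% of all genes passed. The median change of the 56 was -0.0019. Of the 10 Bmp ligands, *Bmp2* rose by 0.81 (limma adjusted p = 0.000623), *Bmp4* fell by 0.56 (limma adjusted p = 0.000596) and *Bmp6* fell by 0.48 (limma adjusted p = 0.00222), and 7 did not pass. Over the 21 ligands and antagonists measured, 6 rose and 3 fell. The largest rise there was that of *Tgfb1* (1.02, limma adjusted p = 1.1e-05) and the largest fall that of *Inhba*, an activin subunit (-0.80, limma adjusted p = 0.000804).

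Secreted antagonists act upstream of the receptors by holding ligands away from them. *Fst*, which binds activins and some Bmps, rose by 0.96 (limma adjusted p = 0.000906) and *Sostdc1*, a Bmp and Wnt antagonist, by 0.95 (limma adjusted p = 0.000715). *Nog*, which binds Bmps, differed by 0.21 (limma adjusted p = 0.335) and did not pass.

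Of the 6 other receptors, 2 fell and 0 rose, where 3.49% of all genes were called lower and 4.36% higher. *Tgfbr1*, the type I receptor for Tgfb, fell by 0.41 (limma adjusted p = 0.00731) and the accessory receptor *Tgfbr3* by 0.23 (limma adjusted p = 0.0445). The activin type II receptors *Acvr2a* (-0.27, limma adjusted p = 0.0622) and *Acvr2b* (-0.14, limma adjusted p = 0.586), which also bind Bmps, did not pass. Nor did *Tgfbr2* (-0.22, limma adjusted p = 0.0739) or *Acvr1c* (0.052, limma adjusted p = 0.924).

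Of the 6 other transcription factors of the pathway, *Smad9*, the remaining Bmp receptor Smad, fell by 0.63, from 6.40 ± 0.053 to 5.77 ± 0.096 (SD, n = 5, limma adjusted p = 1e-04), without overlap of the arrays. The activin and Tgfb Smads *Smad2* (-0.093, limma adjusted p = 0.706) and *Smad3* (0.079, limma adjusted p = 0.607) did not pass. *Jun* rose by 1.03 (limma adjusted p = 0.00266) and *Nfkb2* by 0.41 (limma adjusted p = 0.00678), while *Nfkb1* (0.14, limma adjusted p = 0.292) did not pass.

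Other tooth genes that Bmp signals are known to induce went different ways. *Msx2* rose by 0.77 (limma adjusted p = 0.000195) and the cell cycle inhibitor *Cdkn1a*, a marker of the enamel knot, by 0.95 (limma adjusted p = 0.000111). *Msx1*, which is also a mesenchyme marker, fell by 0.98 (limma adjusted p = 1.02e-05), and *Lef1* (0.26, limma adjusted p = 0.111) did not pass. Of these 4 genes 3 passed, where 7.85% of all genes did, and the changes of the 3 were larger than that of any Id gene.

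**Figure D4:**
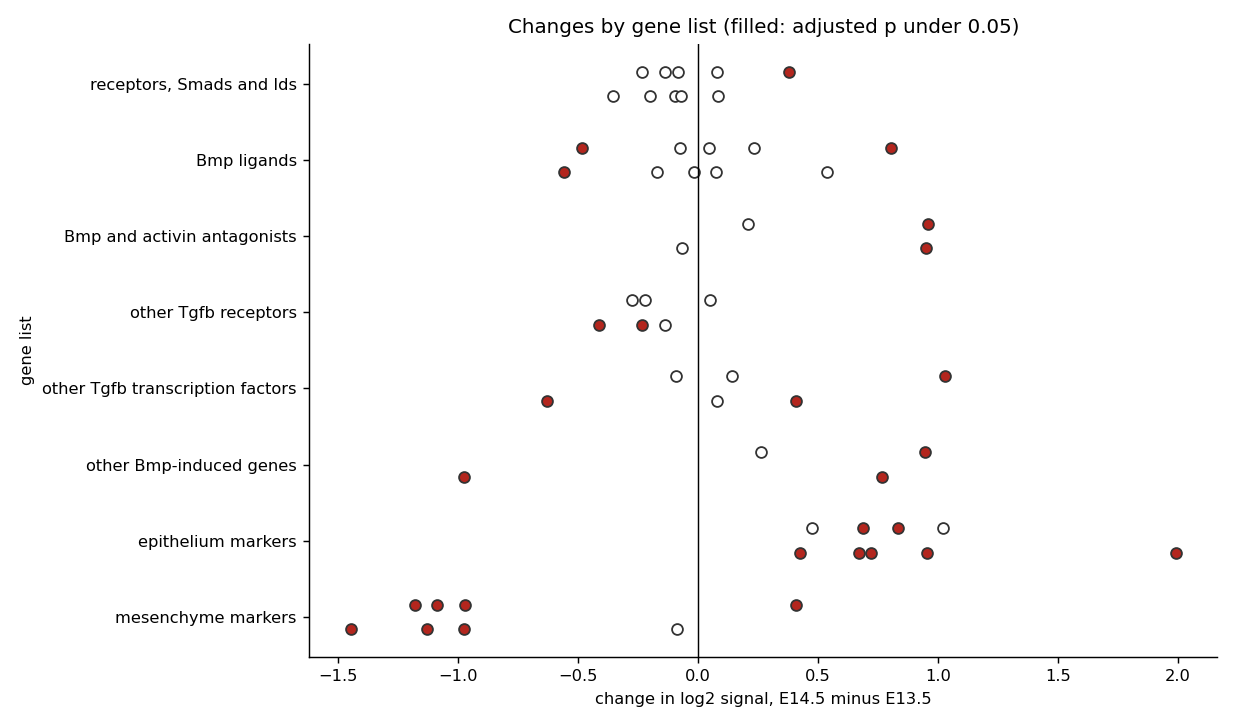
Change in log2 signal from E13.5 to E14.5 (horizontal axis) of the 10 genes and of 7 further gene lists (vertical axis), with 1 dot per gene, filled where the limma adjusted p is under 0.05. The 10 genes lie between -0.36 and 0.38 and the 6 other Tgfb receptors between -0.41 and 0.052. Bmp ligands span -0.56 to 0.81, epithelium markers 0.42 to 1.99 and mesenchyme markers -1.45 to 0.41.

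Profiles over the 10 arrays were compared with those of 397 other genes, from the gene tables of the study and the other members. The measure was the root mean square difference after the mean of each gene was taken off. Among these, the genes most like *Acvr1* were *Fgf1* (0.067), *Notch2* (0.068) and *Tjp3* (0.068), which rose by 0.42, 0.36 and 0.30. Those most like *Smad1*, which had the largest difference in size among *Smad1*, *Smad5* and *Smad4* although it did not pass (0.084 against -0.082 for *Smad5*), were *Yap1*, *Csnk1d* and *Smad3* (0.049 each), and those most like *Id2* were *Wls* (0.087), *Mapk8* (0.096) and *Jak2* (0.097). For genes that change little, a low value of this measure mostly reflects little change in both.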

How the data were processed

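Log2 signals were taken as deposited by the authors, who normalized the arrays with aroma.affymetrix and a Brainarray custom CDF (version 23) that groups the probes of each Ensembl gene. The log base, background correction and summary model are not given in the sources used here, and log2 is a reading of the values. A different base would rescale every change and fold. Scanner files were not used here, so signal over background could not be examined, and the number of arrays limits the precision. For each of 27528 genes, limma 3.58.1 (R 4.3.3) gave the two-sided test of E14.5 minus E13.5 on all 10 arrays, without covariates, and p-values were adjusted by Benjamini-Hochberg over the whole table. Pairs were tested by exact two-sided permutation over 252 splits of the arrays (Python 3.11.15, numpy 2.4.6), with intervals from limma. Both tests were run on simulated data with independent normal noise. Those data held no effect of array spread or replicate number, so this check does not cover such effects.

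The members and gene lists were chosen with earlier results of these data known. Identifiers came from the gene tables of the study, which hold 395 measured genes, and for the Id genes from the member list. Named are all members, in each list the 2 largest rises and 2 largest falls past the threshold, every gene of discussed lists of under 10 genes (marker lists are given by their counts), and the 3 genes most like a leading member of each role. Of the listed genes, *Gdf1* had no value. Another listed gene is not reported here. Markers of blood, muscle, nerve and vessel cells were not examined. Promoter windows were credited to RefSeq and matched by symbol.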

Additional observations from a re-analysis of the deposited data

Results flagged for a closer look

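In 40 sets of 5 arrays (the 10 genes, the 6 pairs and the 4 marker lists at both stages), 7 held an extreme array separated from its neighbour by more than 0.71 of the full range of the set. By chance this happens in about 1 of 20 sets, hence in 2 here, and the pairs share genes with the single values. E14.5 replicate 6 had an *Acvr1* signal of 7.20, while its stage otherwise ran from 7.01 to 7.05. E13.5 replicate 6 had a *Smad1* signal of 6.86, while its stage otherwise ran from 6.67 to 6.70. E13.5 replicate 2 had an *Id2* signal of 7.31, below the 7.69 to 7.75 of its stage, and on the same array *Id1* minus *Id2* was -0.14, against -0.85 to -0.70. On E13.5 replicate 1, *Id1* minus *Id3* was -0.22, against -0.62 to -0.51. That array also had the lowest mean of the epithelium markers (6.93, against 7.38 to 7.53) and of the enamel knot markers (5.99, against 6.33 to 6.40).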

How the results depend on the processing

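The alternatives changed the call of 1 single gene, *Id2*. Its difference passed with quantile normalization (-0.32), array quality weights (-0.34), without dim genes or with trend and robust variances (-0.36 each) and with array spread as a covariate (-0.32), and ran from -0.44 to -0.29 when 1 array was left out. In those 5 settings the count of members past the threshold was 2, while 2399 to 3911 genes passed in all. Fewer genes were tested in the setting without dim genes. The count of members was 1 to 2 when 1 array was left out, while 1479 to 2554 genes passed in all. *Id1* turned to 0.024 with array quality weights. Leaving out 1 array moved *Bmpr1b* minus *Bmpr1a* between -0.16 and 0.010, *Id1* minus *Id2* between 0.20 and 0.38, *Smad1* minus *Smad5* between 0.13 and 0.21, *Id1* minus *Id3* between 0.073 and 0.17 (highest without E13.5 replicate 1) and *Id2* minus *Id3* between -0.28 (without E13.5 replicate 2) and -0.049 (without E13.5 replicate 1). Of the differences that did not pass, *Bmpr2* ran from 0.025 (without E13.5 replicate 2) to 0.14 (without E13.5 replicate 6), *Id1* from -0.15 (without E14.5 replicate 5) to -0.023 (without E14.5 replicate 1), *Smad4* from -0.11 to -0.037 and *Smad5* from -0.12 to -0.052 (both nearest 0 without E14.5 replicate 4), and *Bmpr1b* from -0.29 to -0.14 (without E13.5 replicate 1). The cause of these shifts was not tested. Over all genes 2162 passed, 3911 with array quality weights. Of the other alternatives, 162 for changes of members and 75 for pairs kept direction and side of the threshold. *Bmpr1b* could not be fitted without dim genes, because its mean is under 5. Deviations of same-numbered arrays correlated at -0.079 to 0.51, above 0.1 in 3 of 5, and 2 of 5 correlated best with their own number. Some same-numbered arrays thus deviated alike, but replicate numbers were not shown to pair the arrays. With the replicate number as a block 2077 genes passed, *Acvr1* among them (0.38, limma adjusted p = 0.0115), and the block changed no call of the 10 genes or the 6 pairs. Detection above background cannot be judged from these values, which bears most on *Bmpr1b*.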

Other observations

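The Tgfb pathway list of the study also holds 23 intracellular cofactors shared with other pathways, such as the Ras, Raf and Map kinases. Of these 23, 2 passed, while 7.85% of all genes did. *Pik3r2*, a regulatory subunit of the kinase Pi3k, rose by 0.35, from 6.87 ± 0.17 to 7.21 ± 0.12 (SD, n = 5, limma adjusted p = 0.0399). *Map2k6*, a kinase upstream of p38, fell by 0.55, from 6.57 ± 0.22 to 6.02 ± 0.058 (SD, n = 5, limma adjusted p = 0.00435), without overlap of the arrays. The median change of the 23 was -0.0057, close to that of all genes.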
